A study of Mus musculus with 20 samples.

Results

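The 38 genes described here encode enzymes that oxidise, hydrolyse or conjugate foreign and endogenous molecules, and ABC transporters, which pump molecules across membranes. They were the mouse genes whose symbols begin with Cyp and a digit, Gst, Ugt, Sult, Ces, Aldh, Akr, Adh, Fmo or Abc and that held 20 or more counts over all libraries, leaving out the Cyp2c genes, Cyp3a11, Akr1d1, Abcc2 and Abcb11. They were chosen by their total count over the 20 libraries, a measured value, and by no difference between groups. With those symbols left out the annotation holds 307 such genes, of which 53 had an interval that was counted and 38 reached the threshold. Of the symbols left out, 12 reached it. The nearest genes outside the threshold were Abca13 and Adh6a with 16 counts each and Gsto2 with 19, and the nearest inside it were Cyp2ab1 with 47, Aldh3b2 with 53 and Ugt8a with 63. Among all genes, 2990 held 20 or more counts. The members took 607492 of 123867788 counts, or 0.49%. Of the 38, 35 are protein-coding and 3 are Cyp2d pseudogenes, and no sulfotransferase reached the threshold.

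RNA was sequenced from the livers of 20 mice, 1 library a mouse, with 5 mice in each of 4 groups: control without ABX, control with ABX, anti-CD40 without ABX and anti-CD40 with ABX, where ABX stands for antibiotics. The antibody binds CD40, which B cells, macrophages and dendritic cells carry and which belongs to the family of tumour necrosis factor receptors. Strain, sex, age, antibody clone and dose, the antibiotics, the time of sampling and the treatment of the control mice are not stated in the labels. Because RNA came from pieces of whole liver, fewer cells of a type and less RNA per cell cannot be told apart.

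The liver clears drugs, bile acids, retinoids, lipid aldehydes and steroids in steps. Cytochrome P450 and flavin-containing monooxygenases add oxygen, dehydrogenases oxidise alcohols and aldehydes, esterases split esters, and glutathione or glucuronic acid transferases attach a soluble group before transporters export the product. Inflammatory cytokines are known to lower the expression of many hepatic P450 genes.

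The deposited tables counted mouse alignments at human exon positions, so a gene was measured only through rows with such an interval over its own exons. A row's count was taken whole, including fragments at any of its intervals outside those exons. The stretches given are the exon bases overlapped, and counts need not be confined to them. The members were measured over 50 to 2675 bp, with a median of 432.5 bp, or 10.4% of a gene's exon length. Levels are given as CPM, which are counts per 1000000 of the library's total, after trimmed mean of M values (TMM) scaling, and levels of different genes are compared only per 1000 counted bp. A gene was called where the Benjamini-Hochberg adjusted p of edgeR's quasi-likelihood test over 2200 genes was under 0.05.

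Library totals ran from 5053014 to 7618736 counts. The hepatocyte markers Alb, Apob and Cps1, 3 of 8 listed, were abundant in every liver: their summed level was 162862 to 188055 CPM in control mice without ABX, 180266 to 274387 with ABX, then 56169 to 83173 (anti-CD40, no ABX) and 84376 to 111191 (anti-CD40, ABX). Of the 3, Alb and Cps1 fell and Apob rose in both anti-CD40 comparisons (log2 fold changes without ABX -1.39, -2.30 and 0.23). Of the monocyte and macrophage markers, 3 of 6 were measured, with sums of 106 to 240 CPM, 109 to 158, 245 to 971 and 283 to 891 in the same order, and Lyz2 and Ms4a7 rose while Adgre1 fell. Of the sinusoidal endothelial markers, 3 of 5 were measured, at 98.1 to 145, 89 to 113, 25.5 to 102 and 14.5 to 69.8 CPM. Without ABX only Stab2 of these was called lower (log2 fold change -3.36), and Pecam1 (-0.19) and Stab1 (0.15) were not called. With ABX Stab2 (-3.83) and Stab1 (-0.67) were called lower and Pecam1 (-0.53) was not called. No neutrophil marker was measured. The part these shifts play in the members' changes was not tested. Mouse 8, a control without ABX, stood apart, with the lowest value of its group for 16 of the 32 members tested. Without it the number of members called did not change in any comparison other than that between the anti-CD40 effects, where it rose from 3 to 4. Libraries sat in plate columns 3 to 5, and no column held both anti-CD40 and control mice with ABX.

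Of the 38 members, 32 passed the filter on low counts. Without ABX, anti-CD40 mice differed from control mice in 26 of these, 18 lower and 8 higher, or 81.2%, where 60.6% of all tested genes were called. Their median log2 fold change was -0.97, against 0.03 over all genes. The lower calls were 28.8% of all genes tested and the higher calls 31.8%. With ABX, 24 of the 32 differed, 17 lower and 7 higher, or 75.0%, where 51.5% of all genes were called, 24.9% lower and 26.6% higher, and the median was -0.80 against 0.02. The values of the 5 mice in each group did not overlap for 22 members without ABX, where 42.5% of all genes did not overlap, and for 19 with ABX, where 37.8% did not. In both comparisons 17 members were lower and 5 higher, and none was called in opposite directions. The share of all genes called alike in both was not counted, so these numbers stand without a background. Some members passed the filter mainly through 1 kind of group, such as Abcc12 through the anti-CD40 mice and Ces4a through the controls, so these counts describe the genes that passed. With library totals in place of TMM, 10 members were higher and 16 lower without ABX, where 932 of the 1337 genes called were higher, and 10 higher and 17 lower with ABX, where 1035 of 1347 were higher. The medians of the members were then -0.73 and -0.46, against 0.27 and 0.37 over all genes. Mouse 16 is the only anti-CD40 mouse without ABX in a plate column with controls (mice 9 and 10). In a fit that also held the plate column (the plate term), 19 members remained called without ABX, where 33.4% of all genes were called, and 21 with ABX, where 31.4% were.

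**Figure D1:**
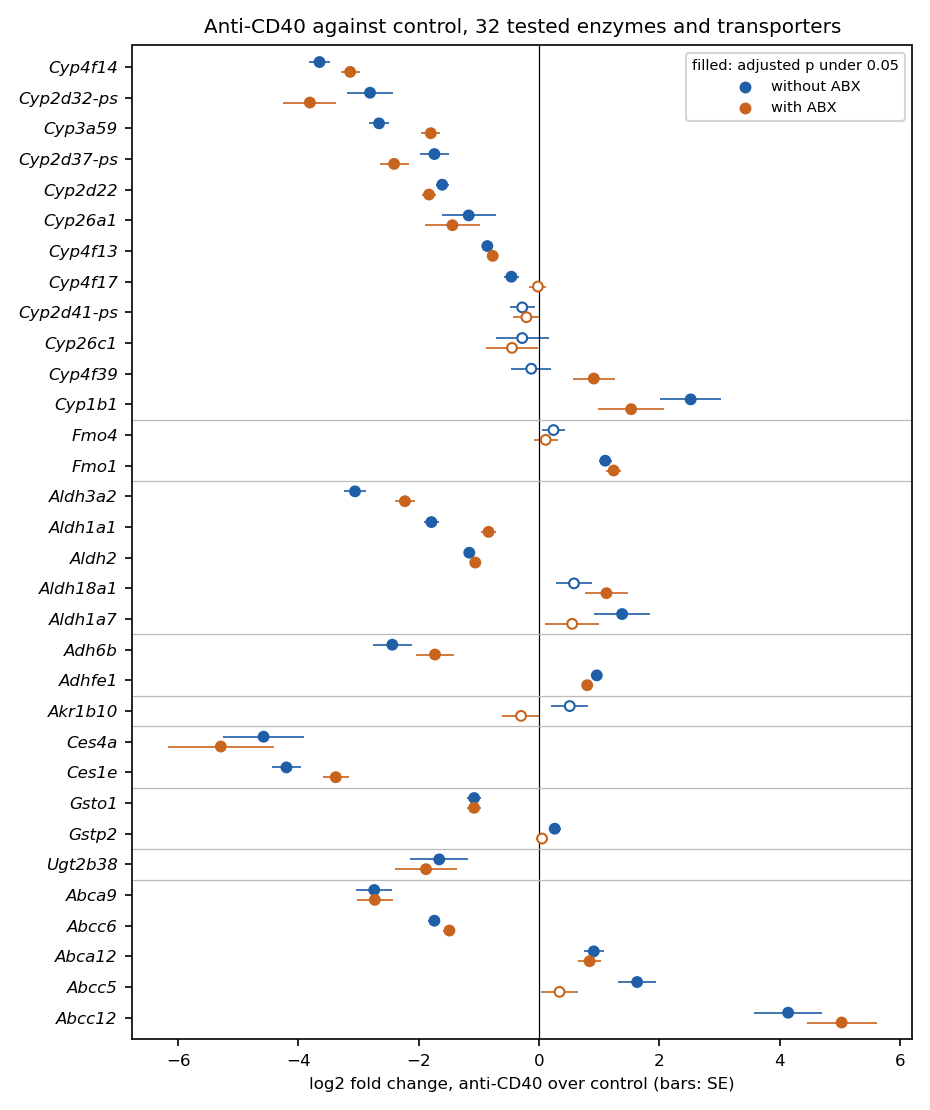
Log2 fold change of anti-CD40 over control for the 32 tested members, without ABX (blue) and with ABX (orange). Bars are standard errors, filled points have an adjusted p under 0.05, and grey lines part the gene families. Filled points lie right of 0 in both comparisons for Fmo1, Adhfe1, Abca12, Abcc12 and Cyp1b1, and left of 0 in both for 17 members. The share of all genes called alike in both was not counted.

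Of the 17 P450 and flavin monooxygenase members 14 were tested, and 8 were lower and 2 higher without ABX, 7 lower and 3 higher with ABX. The steepest fall without ABX among them was in Cyp4f14, a fatty acid and leukotriene B4 omega-hydroxylase measured over 216 coding bp within chr17:32905662-32906569 (mm10). Cyp4f14 stood at 452, 421, 298, 475 and 404 CPM in control mice without ABX and at 551, 633, 650.5, 702 and 585 CPM in control mice with ABX, against 36.6, 21.3, 35.6, 30.3 and 39.4 CPM in anti-CD40 mice without ABX and 65.8, 73.1, 53.3, 68.5 and 94.5 CPM in anti-CD40 mice with ABX. No anti-CD40 mouse came near the lowest control of 298 CPM. Its mean fell 12.6-fold without ABX (log2 fold change -3.65, SE 0.17, adjusted p = 5.95e-14) and 8.79-fold with ABX (log2 fold change -3.14, SE 0.16, adjusted p = 3.67e-13).

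Cyp2d22, a member of the P450 2D family of drug-oxidising enzymes, was measured within chr15:82372390-82372912. Cyp2d22 stood at 357, 365, 286, 465 and 361 CPM in control mice without ABX and at 383, 443, 406, 466 and 440.2 CPM in control mice with ABX, against 123, 101, 133, 128 and 116 CPM in anti-CD40 mice without ABX and 103, 118, 115, 133 and 130.4 CPM in anti-CD40 mice with ABX. Both pairs of groups were apart, and the anti-CD40 means with and without ABX were 119.9 ± 12.1 and 120.1 ± 12.4 CPM (SD, n = 5 each). The fall was 3.06-fold without ABX (log2 fold change -1.61, SE 0.11, adjusted p = 3.48e-12) and 3.56-fold with ABX (log2 fold change -1.83, SE 0.11, adjusted p = 4.42e-13). Its counted stretch is 87.3% identical to Cyp2d10.

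Cyp3a59 belongs to the P450 3A family, which oxidises steroids and many drugs, and was measured in 3 separately counted pieces within chr5:146079257-146104805. The pieces are 98.7% identical to Cyp3a25, so reads of these genes may be mixed. The counted 132 bp of its exon 11 of 13 are shown beside the matching bases of Cyp3a25 because only 2 bases, in capitals, tell them apart (chr5:146104674-146104805, plus strand).
Cyp3a59: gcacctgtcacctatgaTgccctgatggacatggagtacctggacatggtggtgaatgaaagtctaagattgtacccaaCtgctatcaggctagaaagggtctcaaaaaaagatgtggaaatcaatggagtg
Cyp3a25: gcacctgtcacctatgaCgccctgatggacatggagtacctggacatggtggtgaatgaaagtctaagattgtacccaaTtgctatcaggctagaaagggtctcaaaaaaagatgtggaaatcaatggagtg

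Cyp3a59 stood at 61.3, 75, 42.3, 53.5 and 52.7 CPM in control mice without ABX and at 25, 40.5, 28.3, 35.2 and 30.3 CPM in control mice with ABX, against 9.24, 8.32, 10.4, 8.5 and 8.67 CPM in anti-CD40 mice without ABX and 9.73, 10.4, 6.6, 11.6 and 7.56 CPM in anti-CD40 mice with ABX. All anti-CD40 values lay below all control values, and within the controls all 5 ABX mice lay below all 5 others. The anti-CD40 difference was 6.31-fold without ABX (log2 fold change -2.66, SE 0.16, adjusted p = 8.38e-13) and 3.47-fold with ABX (log2 fold change -1.80, SE 0.16, adjusted p = 1.5e-09). Each of its 3 pieces was lower in anti-CD40 mice without ABX than in their controls, at 3.26 against 21.9, 1.39 against 8.64 and 4.37 against 26.5 CPM on average.

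Among the other P450 genes, Cyp4f13 fell from 112 ± 16.2 to 62 ± 6.47 CPM without ABX and from 116 ± 7.25 to 68.1 ± 5.78 with ABX (SD, n = 5), with no overlap in either pair. The pseudogenes Cyp2d37-ps (log2 fold changes -1.74 without and -2.41 with ABX) and Cyp2d32-ps (-2.81 and -3.81) were lower in both comparisons, and 81.8% to 84.3% of their counted bases match another Cyp2d pseudogene. With the plate term the adjusted p of Cyp2d32-ps without ABX was 0.0507. Cyp26a1, which breaks down retinoic acid, ranged from 9 to 77.4 CPM in controls without ABX and 19.4 to 69.2 with ABX, against 11.3 to 24.4 and 12 to 27.9 in anti-CD40 mice. Its groups overlapped in both comparisons, and its call without ABX (log2 fold change -1.17) was lost when any 1 of mice 7, 9, 17, 18 or 19 was left out. That call was also lost with library totals (adjusted p = 0.0752), no filter (0.0586) and only the groups compared (0.065). The plate term (0.216) and leaving out mice 14, 15, 19 and 20 together (0.0659) ended it too. Its relative Cyp26c1 was not called in any comparison.

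Cyp1b1, an oxidiser of oestrogens and polycyclic compounds induced through the aryl hydrocarbon receptor, was the P450 gene that rose in both comparisons. Its controls held 2.93, 3.55, 9, 3.12 and 2.19 CPM without ABX and 4.33, 3.61, 3.72, 3.36 and 3.32 with ABX. In anti-CD40 mice it held 35.6, 25.1, 36.4, 12.1 and 9.61 CPM without ABX and 17.1, 18.4, 11.5, 3.54 and 3.24 with ABX, in order of mouse number. Mouse 8 was the highest control, and with ABX mouse 14 lay among the controls and mouse 15 below all of them, so that pair of groups overlapped. The rise was 5.73-fold without ABX (log2 fold change 2.52, SE 0.51, adjusted p = 0.000386) and 2.88-fold with ABX (log2 fold change 1.53, SE 0.55, adjusted p = 0.0277), and the call with ABX was lost with the plate term (adjusted p = 0.0857), without the filter on low counts (0.0577) and when any 1 of mice 2, 4, 5, 11 or 12 was left out. Mice 14, 15, 19 and 20 had the lowest levels of the endothelial marker Pecam1 among anti-CD40 mice, whose group ranges were 15.3 to 76.9 CPM without ABX and 7.41 to 53.5 with ABX. The same 4 mice held the lowest Cyp1b1 levels of their groups. The summed stellate markers, 2 of 5 measured, ran from 101 to 214 CPM, 75.8 to 185, 17.6 to 129 and 6.79 to 51.3 in the order control without and with ABX, anti-CD40 without and with ABX. The part of these cells in the Cyp1b1 values was not tested.

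Smaller or less stable values were seen in Cyp4f17 and Cyp4f39. Cyp4f17 was measured only in untranslated bases, and fell by 0.46 on the log2 scale without ABX, with overlapping groups. That call was lost when library totals replaced TMM (log2 fold change -0.23), and with ABX the value was -0.02 by TMM and 0.32 by library totals. Cyp4f39, which acts on very long fatty acids of skin lipids, was higher with ABX at 2.49 ± 0.438 against 1.3 ± 0.669 CPM (SD, n = 5), and not called without ABX, at 2.03 ± 0.721 against 2.23 ± 0.668. It lost the call with ABX when any 1 of mice 2, 4, 11, 12 or 14 was left out. Cyp2d41-ps was called in no comparison.

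Fmo1, a flavin monooxygenase that oxidises nitrogen and sulphur atoms of drugs, rose in both comparisons. Controls held 233 to 293 CPM without ABX and 215 to 259 with ABX, and anti-CD40 mice 403 to 719.6 and 493 to 638. The groups did not overlap, and the rise was 2.14-fold (log2 fold change 1.1, SE 0.11, adjusted p = 1.42e-08) and 2.36-fold (log2 fold change 1.24, SE 0.12, adjusted p = 1.98e-09). Its 2 counted rows both rose, from 257 to 551 and from 3.23 to 5.81 CPM on average without ABX. Fmo4 held 12.3 ± 2.55 CPM in controls and 14.5 ± 4.24 in anti-CD40 mice without ABX (SD, n = 5) and was called in no comparison.

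**Figure D2:**
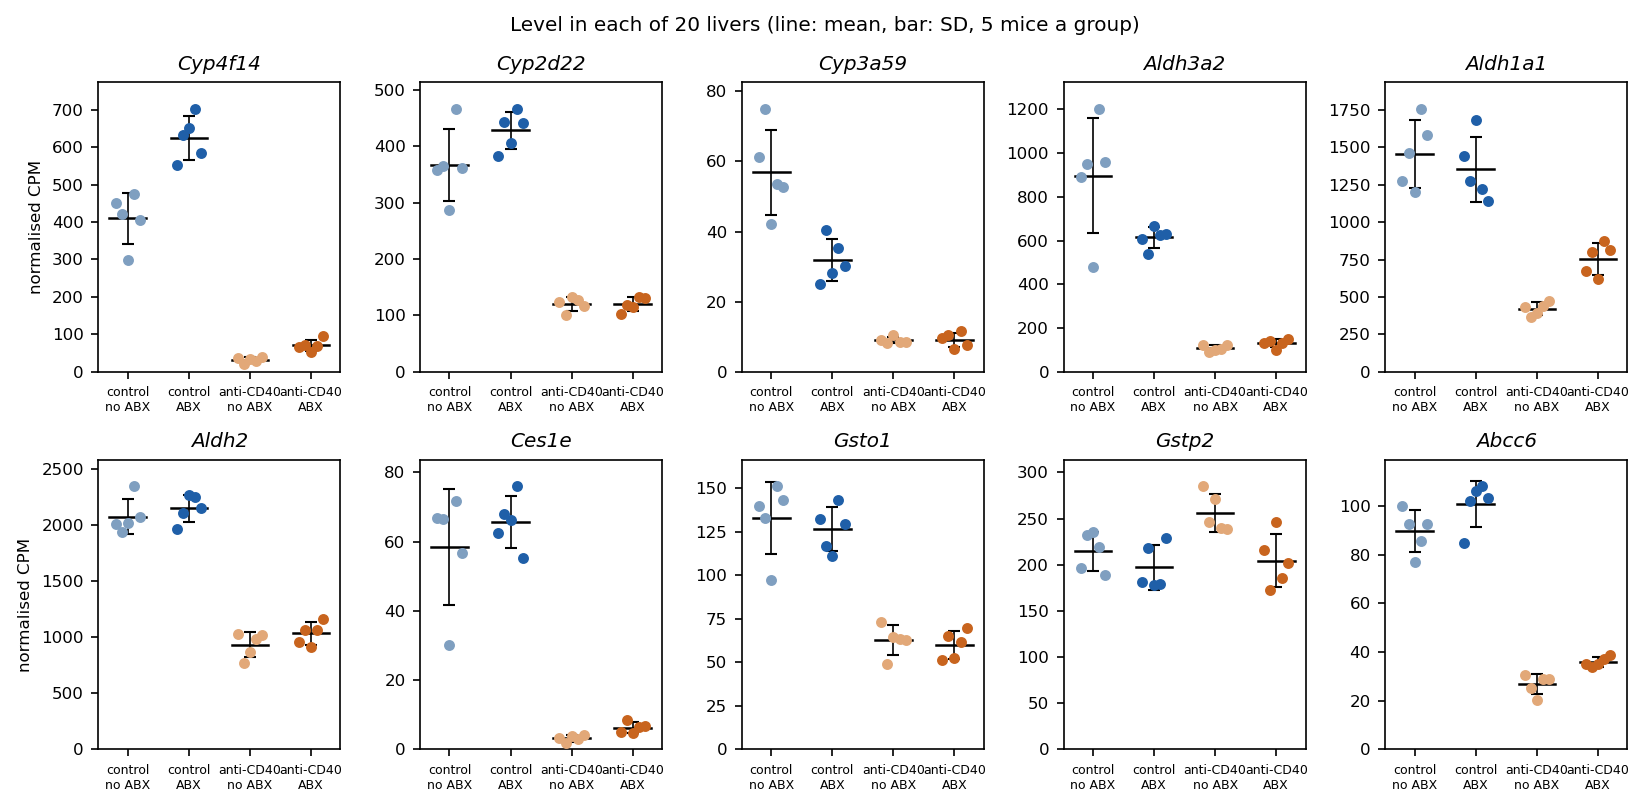
Normalised CPM of 10 members in each of the 20 livers, by group, with the mean as a line and the SD as a bar (5 mice a group, axes start at 0). In 9 of the panels the anti-CD40 points lie below all control points of the same ABX status, and Gstp2 is the exception. The 10 were picked for the smallest p in their role, so this separation was partly set by the choice. Over all genes the groups did not overlap for 42.5% without ABX and 37.8% with ABX.

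Of the 10 dehydrogenase and reductase members 8 were tested, of which 4 were lower and 2 higher in each anti-CD40 comparison. Aldh3a2, the fatty aldehyde dehydrogenase, was measured over 1141 bp within chr11:61245152-61267464. Aldh3a2 stood at 892, 952, 479, 1203 and 959.8 CPM in control mice without ABX and at 607, 541, 669, 627 and 630.1 CPM in control mice with ABX, against 121, 91, 98.9, 106 and 122 CPM in anti-CD40 mice without ABX and 131, 140.1, 99.3, 134 and 149.7 CPM in anti-CD40 mice with ABX. Mouse 8 was the lowest control at 479 CPM and still lay above every anti-CD40 mouse. The fall was 8.32-fold without ABX (log2 fold change -3.06, SE 0.18, adjusted p = 2.73e-12) and 4.7-fold with ABX (log2 fold change -2.23, SE 0.17, adjusted p = 3.89e-10). Its 2 rows with counts fell alike without ABX, from 625 to 79.9 and from 273 to 28 CPM on average.

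Aldh1a1 oxidises retinaldehyde to retinoic acid and was measured over 343 coding bp within chr19:20620061-20624825. Aldh1a1 stood at 1272, 1463, 1203, 1756 and 1578 CPM in control mice without ABX and at 1439, 1276, 1682, 1218 and 1140.3 CPM in control mice with ABX, against 430.1, 366, 395, 443 and 475 CPM in anti-CD40 mice without ABX and 670.3, 802, 618, 876 and 813 CPM in anti-CD40 mice with ABX. The groups formed 3 levels: both control groups, then anti-CD40 mice with ABX, then anti-CD40 mice without. The fall was 3.45-fold without ABX (log2 fold change -1.79, SE 0.12, adjusted p = 8.11e-12) and 1.79-fold with ABX (log2 fold change -0.84, SE 0.12, adjusted p = 2.45e-06).

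Aldh2, the mitochondrial enzyme that clears acetaldehyde, had the highest level per counted length, at a mean of 16069 CPM per 1000 bp in controls without ABX. It was counted over 129 bp at chr5:121575896-121576024. Aldh2 stood at 2005, 1935, 2015, 2343 and 2068 CPM in control mice without ABX and at 1966, 2109, 2268, 2246 and 2151 CPM in control mice with ABX, against 1025, 769, 864, 979.9 and 1015 CPM in anti-CD40 mice without ABX and 960, 1061, 912, 1066 and 1165 CPM in anti-CD40 mice with ABX. Every anti-CD40 mouse held less than every control. The fall was 2.23-fold without ABX (log2 fold change -1.16, SE 0.09, adjusted p = 9.28e-11) and 2.08-fold with ABX (log2 fold change -1.06, SE 0.09, adjusted p = 5.68e-10).

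Aldh1a7 is a close relative of Aldh1a1, and its fitted change had the opposite sign. Its rows overlap 75 bp of its exon 12 of 13 (chr19:20696336-20696410, minus strand). That stretch is printed beside the matching bases of Aldh1a1 to show the 15 differing bases, in capitals.
Aldh1a7: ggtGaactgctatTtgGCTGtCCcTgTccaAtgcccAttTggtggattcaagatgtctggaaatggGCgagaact
Aldh1a1: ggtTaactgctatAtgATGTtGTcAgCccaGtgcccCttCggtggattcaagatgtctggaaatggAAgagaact

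Aldh1a7 held 0.978, 0.485, 0.833, 0.148 and 0.674 CPM in controls and 1.48, 2.18, 0.66, 1.86 and 2.05 CPM in anti-CD40 mice without ABX, so the groups overlapped. The rise was called (log2 fold change 1.38, SE 0.47, adjusted p = 0.0145), and with ABX it was not, at 1.64 ± 0.502 against 1.12 ± 0.75 CPM (SD, n = 5). The 4 groups held 20 to 55 counts each, from 2 rows that overlap the same exon bases. Over all libraries those rows held 72 and 84 counts, so not all of them lay on the shared bases alone. Those rows differed: in anti-CD40 mice without ABX against their controls, means were 1.09 against 0.222 CPM in one and 0.557 against 0.402 in the other. The call was lost without mice 14, 15, 19 and 20 (adjusted p = 0.0863) and with the plate term (0.163).

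Among the alcohol dehydrogenases, Adh6b fell from 14.5 ± 6.77 to 2.62 ± 1.13 CPM without ABX and from 13.9 ± 1.53 to 4.15 ± 1.67 with ABX (SD, n = 5), without overlap. Adhfe1, which oxidises hydroxybutyrate in mitochondria, rose instead. Its controls held 214 to 247 CPM without ABX and 227 to 260 with ABX, against 331 to 498 and 366 to 470.4 in anti-CD40 mice, again with no overlap. The rise was 1.94-fold (log2 fold change 0.96, SE 0.09, adjusted p = 3.44e-09) and 1.75-fold (log2 fold change 0.80, SE 0.09, adjusted p = 7e-08). Of its counted bases 23.9% are coding, and both rows rose, from 142 to 260 and from 85.6 to 183 CPM without ABX. Aldh18a1, which makes the precursor of proline from glutamate, was higher with ABX at 3.71 ± 1.16 against 1.67 ± 0.912 CPM (log2 fold change 1.12, SE 0.35, adjusted p = 0.00865), while without ABX the value was 4.82 ± 1.71 against 3.21 ± 0.971 CPM and not called. Akr1b10, an aldo-keto reductase whose counted stretch is 96.3% identical to Gm15806, was called in no comparison.

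Both carboxylesterases fell. Ces1e splits esters of drugs and lipids and was counted over 69 bp of its exon 5 of 14 (chr8:93217499-93217567, minus strand). The stretch is 94.2% identical to Ces1h, and both are printed because only the 4 bases in capitals tell them apart.
Ces1e: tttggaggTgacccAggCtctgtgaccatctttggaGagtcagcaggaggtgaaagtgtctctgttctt
Ces1h: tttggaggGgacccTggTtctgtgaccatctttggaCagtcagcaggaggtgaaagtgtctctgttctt

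Ces1e stood at 66.9, 66.6, 30.2, 71.9 and 56.6 CPM in control mice without ABX and at 62.4, 68.1, 66.2, 76 and 55.4 CPM in control mice with ABX, against 3.3, 1.79, 3.79, 2.94 and 4.26 CPM in anti-CD40 mice without ABX and 5.05, 8.5, 4.71, 6.47 and 6.64 CPM in anti-CD40 mice with ABX. Even mouse 8, the lowest control at 30.2 CPM, lay well above the highest anti-CD40 value of 8.5 CPM. The fall was 18.3-fold without ABX (log2 fold change -4.20, SE 0.24, adjusted p = 1.8e-12) and 10.4-fold with ABX (log2 fold change -3.38, SE 0.22, adjusted p = 2.07e-11).

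Ces4a, another carboxylesterase, was measured over 50 bp only. Controls without ABX held 10.8, 5.66, 0.666, 4.9 and 5.56 CPM and anti-CD40 mice without ABX 0.33, 0.384, 0.33, 0 and 0 CPM, a total of 182 against 7 counts, and the groups did not overlap (log2 fold change -4.58, SE 0.67, adjusted p = 4.08e-06). With ABX it held 93 counts in controls and 2 in anti-CD40 mice, a ratio of 50.7 with a 95% exact binomial interval of 13.6 to 425 that covers counting error only. Ces4a passed the filter mainly through the controls, so its calls and lack of overlap are no independent result.

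The conjugating enzymes numbered 4, of which 3 were tested. Gsto1, an omega class glutathione transferase with thiol transferase activity, was counted over 95 bp at chr19:47864405-47864499, part of it untranslated. Gsto1 stood at 139.7, 133, 97.3, 151 and 143 CPM in control mice without ABX and at 132, 117, 111, 143 and 129.5 CPM in control mice with ABX, against 73.4, 49.3, 64.5, 63.4 and 63 CPM in anti-CD40 mice without ABX and 51.2, 65.1, 52.2, 61.6 and 69.6 CPM in anti-CD40 mice with ABX. The lowest control, mouse 8 at 97.3 CPM, lay above the highest anti-CD40 mouse at 73.4 CPM. The fall was 2.12-fold without ABX (log2 fold change -1.08, SE 0.12, adjusted p = 2.27e-08) and 2.11-fold with ABX (log2 fold change -1.08, SE 0.12, adjusted p = 2.95e-08).

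Gstp2, a pi class glutathione transferase, was counted over 100 bp at chr19:4045924-4046023, in a first exon of a GENCODE transcript that begins upstream of the RefSeq start. Gstp2 stood at 197, 232, 235, 219 and 189 CPM in control mice without ABX and at 181, 218, 178, 179 and 229.5 CPM in control mice with ABX, against 285, 246, 271, 239.8 and 239 CPM in anti-CD40 mice without ABX and 216, 173, 246, 186 and 202 CPM in anti-CD40 mice with ABX. Anti-CD40 mice without ABX were the highest group, and the lowest of them at 239 CPM lay just above the highest of their controls at 235 CPM. The difference was small (log2 fold change 0.26, SE 0.10, adjusted p = 0.0277), and it was lost with the plate term and when any 1 of mice 6, 10, 16 or 18 was left out. With ABX the groups overlapped (log2 fold change 0.05, SE 0.10, adjusted p = 0.678), although library totals in place of TMM gave 0.40 and a call.

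Ugt2b38 attaches glucuronic acid and was counted over 88 bp of its exon 4 of 6 (chr5:87412361-87412448, minus strand). The stretch is shown with that of Ugt2b37, which differs at the 1 base in capitals and matches it as well as Ugt2b5 does, so the level may belong to any of these genes.
Ugt2b38: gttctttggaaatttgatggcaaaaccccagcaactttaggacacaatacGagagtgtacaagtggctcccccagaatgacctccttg
Ugt2b37: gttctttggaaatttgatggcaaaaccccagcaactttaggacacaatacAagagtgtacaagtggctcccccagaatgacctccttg

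At this stretch controls held 20.8, 12.6, 2.83, 9.95 and 12.3 CPM without ABX and 10.6, 10.1, 4.46, 3.71 and 17 with ABX, and anti-CD40 mice 4.12, 2.3, 5.94, 4.95 and 1.42 and 1.62, 3.23, 4.08, 1.54 and 1.85. Both pairs of groups overlapped. The fall was called without ABX (log2 fold change -1.66, SE 0.48, adjusted p = 0.00615) and with ABX (log2 fold change -1.88, SE 0.52, adjusted p = 0.00536), and the plate term ended both calls (adjusted p = 0.316 and 0.142).

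All 5 ABC transporters were tested, and 2 fell and 3 rose without ABX. Abcc6, which releases ATP from hepatocytes and is mutated in pseudoxanthoma elasticum, was counted over 126 coding bp at chr7:45979909-45980034. Abcc6 stood at 99.8, 92.4, 77.1, 85.4 and 92.7 CPM in control mice without ABX and at 84.7, 102, 106, 108 and 103 CPM in control mice with ABX, against 30.7, 25.4, 20.1, 29.1 and 28.8 CPM in anti-CD40 mice without ABX and 35, 33.7, 34.9, 37.1 and 38.7 CPM in anti-CD40 mice with ABX. The groups were wide apart, with a fall of 3.34-fold without ABX (log2 fold change -1.74, SE 0.10, adjusted p = 3.55e-13) and 2.8-fold with ABX (log2 fold change -1.49, SE 0.10, adjusted p = 5.27e-12). Abca9, a transporter of the lipid-handling ABCA class, fell from 4.41 ± 0.864 to 0.646 ± 0.179 CPM without ABX and from 4.65 ± 0.546 to 0.679 ± 0.361 with ABX (SD, n = 5), with no overlap.

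Abcc12, a transporter whose substrates are not well known, was close to absent in controls, with 8 counts in all without ABX and 6 with ABX. Its levels there were 0.279, 0.323, 0.167, 0.148 and 0.337 CPM and 0, 0.542, 0, 0.354 and 0.185 CPM, against 8.58, 2.18, 3.13, 2.01 and 8.04 and 8.47, 10.4, 3.77, 7.7 and 7.72 CPM in anti-CD40 mice. All 10 anti-CD40 mice lay above all controls. The gene passed the filter mainly through the anti-CD40 mice, so that separation and its calls are no independent result. The fitted rise was 17.6-fold without ABX (log2 fold change 4.14, SE 0.57, adjusted p = 1.12e-06) and 32.6-fold with ABX (log2 fold change 5.03, SE 0.58, adjusted p = 8.35e-08), and its size rests on the few control counts. In 3 separately counted rows the anti-CD40 means without ABX were 0.54, 2.03 and 2.22 CPM against 0, 0.156 and 0.095 in controls, and of all counted bases 36% are coding.

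Abca12, which carries lipids in skin and lung cells, was higher at 13.6 ± 2.58 against 7.26 ± 0.985 CPM without ABX and at 9.48 ± 1.68 against 5.29 ± 1.26 with ABX (SD, n = 5), without overlap. All 1126 of its counts came from the row over 94 bp, while its other row, over 140 bp, held 0 counts. Abcc5, an exporter of cyclic nucleotides, was higher without ABX at 3.77 ± 1.29 against 1.19 ± 0.624 CPM, and with ABX at 2.65 ± 0.664 against 2.1 ± 0.235 it was not called. The call without ABX was lost with the plate term (log2 fold change 0.74, adjusted p = 0.361).

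**Figure D3:**
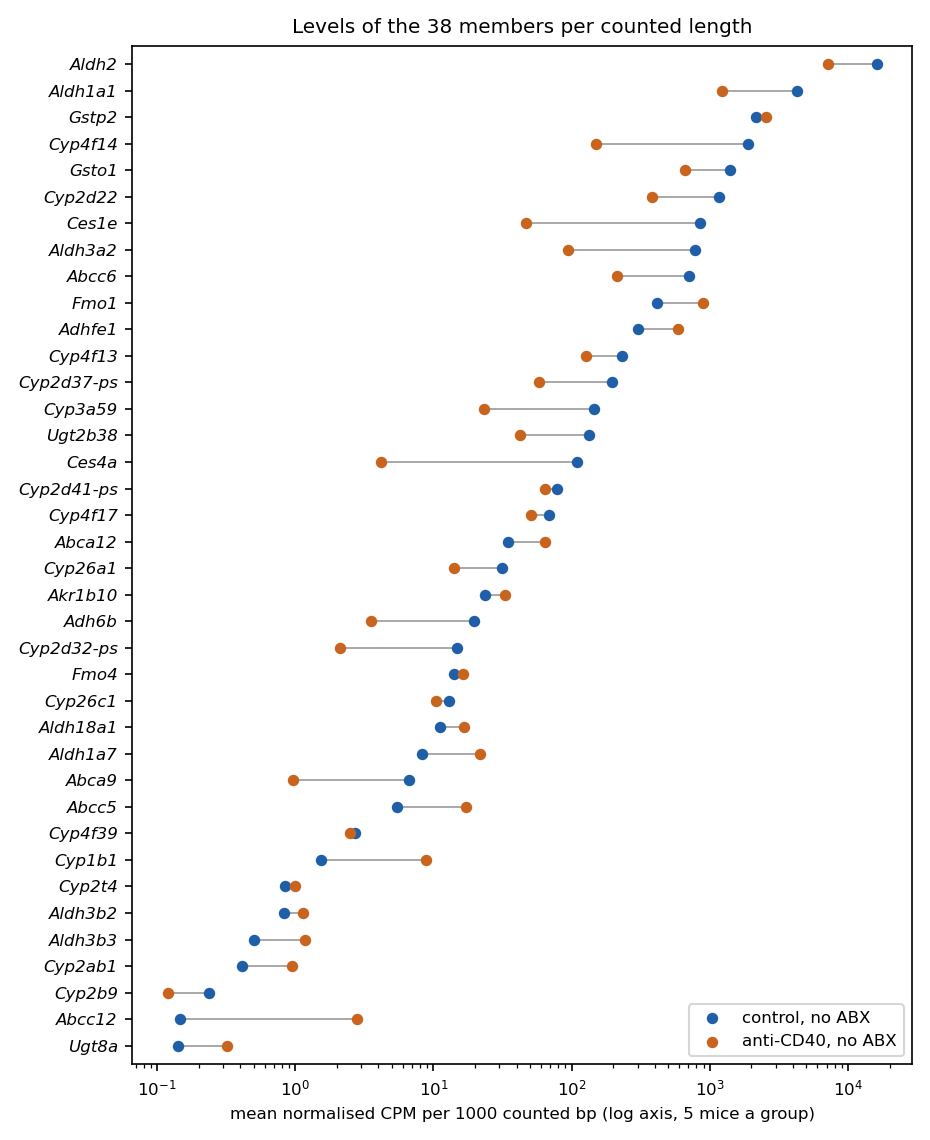
Mean normalised CPM per 1000 counted bp of the 38 members, on a log axis, in control mice (blue) and anti-CD40 mice (orange) without ABX, 5 mice a group, ordered by the control level. Aldh2 is highest at 16069 in controls and Ugt8a lowest at 0.142.

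Per counted length the order in controls without ABX began with Aldh2 at 16069, Aldh1a1 at 4239.9, Gstp2 at 2144 and Cyp4f14 at 1897 CPM per 1000 bp. In anti-CD40 mice without ABX it began with Aldh2 at 7214, Gstp2 at 2560.5, Aldh1a1 at 1229.7 and Fmo1 at 892, while Cyp4f14 stood at 151. The stretch within a gene that was counted can set such levels as well as the abundance of its RNA. Whole row counts were divided by the overlapped exon bases alone, so fragments reaching beyond short stretches can raise their levels. Aldh2, Aldh1a1, Gstp2 and Cyp4f14 were measured over 129, 343, 100 and 216 bp, each below the median of 432.5 bp.

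ABX was compared within control and within anti-CD40 mice. In control mice 4 of the 32 tested members differed, 1 higher and 3 lower, or 12.5%, where 6.68% of all genes were called, 3.45% higher and 3.23% lower, and the groups did not overlap for 3, where 6.23% of all genes did not. Cyp4f14 was 1.52-fold higher with ABX (log2 fold change 0.61, SE 0.15, adjusted p = 0.0158). Cyp3a59 was 1.79-fold lower (log2 fold change -0.84, SE 0.15, adjusted p = 0.00174) and Cyp4f17 1.55-fold lower (log2 fold change -0.63, SE 0.14, adjusted p = 0.00714), and these 3 were the members without overlap. Aldh3a2 was 1.46-fold lower with overlapping groups (log2 fold change -0.55, SE 0.16, adjusted p = 0.0456), a call lost in 24 of 29 alternatives, with adjusted p from 0.000402 to 0.426. Within plate column 3, which holds mice 1 to 5 with ABX and mice 6 to 8 without, 2 of 31 members were called, where 44 of 2041 genes (2.2%) were. There Cyp4f14 (log2 fold change 0.67, adjusted p = 0.0187) and Cyp3a59 (-0.91, 0.0366) kept their calls and Cyp4f17 did not (adjusted p = 0.0517).

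In anti-CD40 mice ABX changed 6 of the 32, 4 higher and 2 lower, or 18.8%, where 15.9% of all genes were called, 8.68% higher and 7.23% lower. Higher with ABX were Cyp4f14 by 2.18-fold (log2 fold change 1.13, SE 0.16, adjusted p = 9.04e-05), Aldh1a1 by 1.79-fold (log2 fold change 0.84, SE 0.12, adjusted p = 7.54e-05), Ces1e by 1.97-fold (log2 fold change 0.98, SE 0.27, adjusted p = 0.0184) and Abcc6 by 1.34-fold (log2 fold change 0.42, SE 0.10, adjusted p = 0.0062). In each of these 4 all ABX mice lay above all others, where the groups did not overlap for 10% of all genes. Gstp2 (log2 fold change -0.32, SE 0.10, adjusted p = 0.0268) and Abca12 (log2 fold change -0.52, SE 0.17, adjusted p = 0.0383) were lower with overlapping groups. The call of Abca12 was lost in 13 of 27 alternatives, among them library totals and no filter, and that of Gstp2 in 7 of 28. The hepatocyte marker sum was also higher with ABX in anti-CD40 mice, at a median of 97484 against 76524 CPM, and its part in these values was not tested. Of the anti-CD40 mice without ABX only mouse 16 shared a plate column with those given ABX. With the plate term none of the 32 was called by edgeR, and 5 of all 2200 genes were called. Unadjusted, 7 members had an edgeR p under 0.05, and the share of all genes that did was not counted. DESeq2, run without the plate term, called 6.

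**Figure D4:**
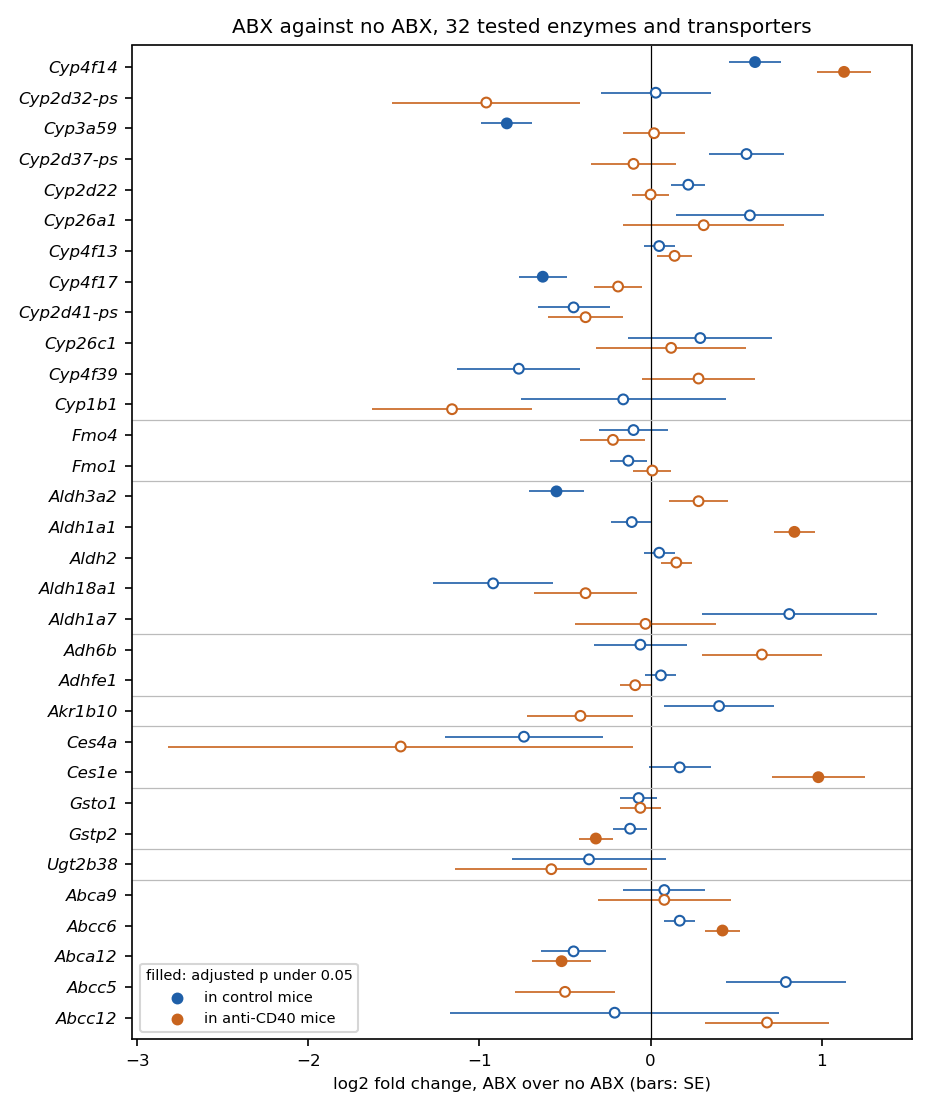
Log2 fold change of ABX over no ABX for the 32 tested members in control mice (blue) and anti-CD40 mice (orange). Bars are standard errors and filled points have an adjusted p under 0.05. Cyp4f14 lies right of 0 in both, at 0.61 and 1.13, and most other points lie near 0.

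The difference between the anti-CD40 effects with and without ABX was itself tested, and 3 of the 32 members passed, or 9.38%, where 7.55% of all genes did, 4.36% in the same, positive direction and 3.18% in the other. These were Aldh1a1 (log2 fold change 0.95, SE 0.17, adjusted p = 0.00195), Cyp3a59 (log2 fold change 0.86, SE 0.23, adjusted p = 0.0249) and Aldh3a2 (log2 fold change 0.82, SE 0.23, adjusted p = 0.0359), all with a smaller fall under ABX. They came to it by different levels. For Aldh1a1 the anti-CD40 means were 756 ± 108 CPM with ABX and 422 ± 42.2 without, while the control means were 1351 and 1454. For Cyp3a59 the anti-CD40 means were 9.16 ± 2.04 and 9.02 ± 0.837 CPM, and the control means 31.8 ± 6.07 and 57 ± 12.1 (SD, n = 5). For Aldh3a2 the anti-CD40 means were 131 and 108 CPM and the control means 615 and 897. With the plate term none of the 3 was called by edgeR, with log2 differences of 0.77, 0.89 and 0.45 in that order, and 0 of all 2200 genes were called. Unadjusted, 3 members had an edgeR p under 0.05, and the share of all genes that did was not counted. The call of Aldh3a2 was lost in 16 of 27 alternatives. Without mouse 14 the calls of Cyp3a59 (adjusted p = 0.0581) and Aldh3a2 (0.0659) were lost, and without mouse 8 Ces1e was also called (log2 difference 0.98, adjusted p = 0.0127).

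The 6 members that did not pass the filter had few counts. Cyp2b9, a P450 gene of the 2B family, held 11 counts in controls without ABX, 108 in controls with ABX, 6 in anti-CD40 mice without ABX and 0 with ABX. Its controls with ABX ranged from 0.361 to 12.5 CPM, with mouse 3 the highest. Ugt8a, which makes galactosylceramide, held 42 counts in controls with ABX and 4 to 12 in the other groups, and mouse 1 alone stood at 5.61 CPM. Aldh3b3 held 13 and 8 counts in the control groups without and with ABX and 33 and 31 in the anti-CD40 groups. Aldh3b2, Cyp2ab1 and Cyp2t4 held 3 to 33 counts a group. These 6 did not enter the tests above. In the fit without the filter, Cyp2b9 (adjusted p = 0.000396) and Ugt8a (0.0101) were called lower in anti-CD40 mice with ABX, and Cyp2b9 was called higher with ABX in controls (0.0403). There 28.7% of 4217 genes were called in the first comparison and 3.1% in the second. Controls with ABX held 108 of the 125 counts of Cyp2b9 and 42 of the 63 of Ugt8a. The calls against that group draw on most of the counts that made these genes members, so they are no independent result.

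Other genes of drug and oxidant handling were taken from a list, and the values of 6 that were measured and tested are given here. Srxn1, which repairs oxidised peroxiredoxins and is a target of the oxidant sensor NRF2, rose from 39.4 to 53.2 CPM in controls to 315 to 689.5 CPM in anti-CD40 mice without ABX (log2 fold changes 3.40 without and 3.86 with ABX). Blvrb, biliverdin reductase B, rose (1.01 and 1.01), as did Keap1, the repressor of NRF2 (0.51 and 1.06). Rxra, the shared partner of nuclear receptors, and Sod1, superoxide dismutase, were called lower without ABX (-0.64 and -0.40) and not called with ABX (-0.17 and 0.13). Aox1, aldehyde oxidase, was called higher with ABX (0.73) and not called without (-0.31). The difference between the anti-CD40 effects was called for Aox1 (1.04) and Keap1 (0.55) and not for Rxra (0.47) or Sod1 (0.53), and with the plate term neither call was kept. In control mice Aox1, Blvrb and Sod1 were lower with ABX. In anti-CD40 mice Keap1 and Rxra were higher with ABX and Blvrb lower.

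Promoters of a gene that fell and one that rose in both comparisons are printed to show what letters they share. The 250 bases before the RefSeq start (GRCm38.p6, the assembly of mm10) hold the core of the xenobiotic response element, GCGTG on either strand, in capitals in both. The core was found in 28.2% of 32851 promoters of this length. It was also in those of 8 of the 27 members with a listed promoter. Among them was Cyp4f14, which fell but did not hold it at all of its start sites. Ces1e, Gsto1 and Aldh1a1, which also fell, did not hold it, so the pair printed does not stand for the members. Aldh3a2 lies at chr11:61267187-61267436 and Cyp1b1 at chr17:79715062-79715311, both on the minus strand.
Aldh3a2: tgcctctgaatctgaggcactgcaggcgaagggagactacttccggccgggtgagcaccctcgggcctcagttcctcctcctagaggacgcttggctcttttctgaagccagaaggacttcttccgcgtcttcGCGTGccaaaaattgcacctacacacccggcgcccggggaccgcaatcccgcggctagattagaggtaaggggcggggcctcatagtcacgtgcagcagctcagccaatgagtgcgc
Cyp1b1: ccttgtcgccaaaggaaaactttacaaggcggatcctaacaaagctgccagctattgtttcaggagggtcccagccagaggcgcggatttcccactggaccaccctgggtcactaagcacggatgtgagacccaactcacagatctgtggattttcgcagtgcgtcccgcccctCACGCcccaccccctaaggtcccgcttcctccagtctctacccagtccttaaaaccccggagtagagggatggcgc

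Other motifs were scarce. The gamma-activated site TTCNNNGAA was in the promoters of 3 members (Abcc5, Aldh18a1 and Cyp4f13) and in 7.02% of all promoters. The NF-kB consensus decamer was in none of the members' promoters and in 0.14% of all, and an HNF4 site, CAAAGTCCA, in none and in 0.384% of all. A match of letters does not show that a factor binds.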

How the data were processed

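Liver RNA of 20 mice was sequenced, 5 in each of 4 groups taken from the labels. Per the submitters' processing notes, Trimmomatic 0.38 trimmed the reads and HISAT2 2.1.0 placed them on mm10. Per the file headers, the authors made whole-number counts of fragments with featureCounts 1.5.0-p2 over exons of the human Ensembl 93 annotation (GRCh38), without a strand option, so human identifiers were ignored. The deposited counts are not normalised. The 3576 features on human chromosomes that the mouse lacks held 0 counts.

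Intervals were read as mm10 and intersected with GENCODE M21 exons (bedtools 2.31.1). Rows over exactly 1 gene by 50 bp or more were summed whole, with any of their intervals outside its exons: 7463 rows, 5552 genes, 46.35% of counts. The 52.34% of counts that fell in rows over more than 1 gene were not used. Counts without strand cannot separate antisense genes. 1 edgeR 4.0.16 fit (R 4.3.3, filterByExpr, TMM, robust quasi-likelihood, library size as the total of all rows, biological coefficient of variation 16.7%) covered all 20 libraries, and was tested on simulated data. Tests were two-sided. The p-values of the main fit rest on 1 spread per gene between mice of the same group. That spread was estimated over all 20 libraries and drawn towards that of other genes. Intervals cover counting error only.

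Counted stretches were compared with all GENCODE transcripts with blastn 2.17.0 (E-value 0.001). Promoters came from RefSeq. Full values are given for up to 3 members a role with the smallest p over the 5 comparisons and a mean of 10 CPM or more. Alternatives were library totals, DESeq2 1.42.0, no filter, only the groups compared, a plate term, protein-coding genes only, an overlap of 100 bp, each mouse left out and, chosen after seeing the data, mice 14, 15, 19 and 20 left out. Members and lists were chosen with earlier results of these data known. 1 gene of the list of drug and oxidant handling is not reported here.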

Additional observations from a re-analysis of the deposited data

Results flagged for a closer look

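In 128 sets of 5 mice (32 members, 4 groups) the highest or lowest mouse was compared with the range of its group, and 6 stood apart, where chance marks about 1 in 20. In anti-CD40 mice without ABX, mouse 18 had 9.07 CPM of Abca12 (others 14.1 to 15.2) and mouse 17 had 331 CPM of Adhfe1 (others 451 to 498). In control mice with ABX, mouse 1 had 84.7 CPM of Abcc6 (others 102 to 108) and mouse 5 had 19.4 CPM of Cyp26a1 (others 58 to 69.2). Mouse 8, a control without ABX, had 9 CPM of Cyp1b1 (others 2.19 to 3.55). Ces4a was at 0.309 CPM in mouse 15, from 2 counts, and at 0 in the other anti-CD40 mice with ABX.

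The anti-CD40 effect differed between mice with and without ABX by an interaction test (edgeR) in Aldh3a2, Aldh1a1 and Cyp3a59. The log2 differences were 0.82, 0.95 and 0.86, each in the direction of a smaller fall with ABX. These calls were 9.38% of the members tested, near the 7.55% of all genes called. With the plate term none of them was kept.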

How the results depend on the processing

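No paired analysis was possible because mice are numbered 1 to 20 and no number is shared between groups. Over all alternatives, calls kept were 19 of 26 (anti-CD40 without ABX), 20 of 24 (with ABX), 0 of 3 (difference between these), 2 of 4 (ABX in controls) and 0 of 6 (ABX in anti-CD40 mice). With plate column as a term the count was 0 for the difference between the effects and 0 for ABX in anti-CD40 mice, and within plate column 3 it was 2 for ABX in controls. Without mice 14, 15, 19 and 20 the difference between the effects was called in 1 member. Leaving out 1 mouse gave 24 to 26, 22 to 24, 1 to 4, 3 to 4 and 4 to 6 members called in the order above, and mouse 14 gave the 1. Cyp4f17 with ABX reversed from -0.02 to 0.32 with library totals, which moved the median of all genes to 0.27 without ABX and 0.37 with ABX. The cause was not tested. For ABX in anti-CD40 mice the share of higher calls was 66.7%, and 80% with library totals, without the filter and with only the groups compared. For ABX in controls it was 25%, and 50% without the filter, within plate column 3 and without the 4 mice. Members with under about 100 counts a group, such as Aldh1a7 and Ces4a, are limited by depth.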
